A study of Mus musculus with 6 samples.

Results

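The 36 genes described here are a set of interferon response genes, chosen by symbol, and 35 of them were listed among the 22173 gene symbols measured by RNA-seq in 6 mouse livers. Mx1 was not analysed here. The livers fall into 2 groups of 3 wild type mice, the DDK group and the vehicle group. All mice started the HFHC diet at 6 weeks of age and stayed on it for 16 weeks, with DDK or vehicle administered for the final 4. Diet and compound appear in the labels by these abbreviations alone, and the study's title calls DDK a limonoid. No label states sex, strain, cage or sequencing batch, and no group without the diet was used here. The labels number the livers within each group without saying more about the animals, so p-values measure the spread between these samples.

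Interferons are secreted proteins that switch on a shared programme of defence genes. Type I interferons (the alpha family and interferon beta) signal through IFNAR1 and IFNAR2 and the kinases JAK1 and TYK2 to a complex that holds STAT2 and IRF9 and binds a DNA element called ISRE. Interferon gamma signals through IFNGR1 and IFNGR2 and the kinases JAK1 and JAK2, and its early target genes carry an element called GAS. The Ifit, Oas and Isg15 genes are typical of the type I response, and the GTPase families Gbp and Irg are strongly induced by interferon gamma, although most of these genes respond to both. In liver, hepatocytes, Kupffer cells and endothelial cells all carry interferon receptors.

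Promoter sequence was shown for 1 member of each of the 4 main families, the one with the smallest p among those for which sequence was used, because these families carry the comparison of type I and gamma genes. Sequences are from RefSeq on GRCm38.p6, each on the strand of its gene, and end at or before the base ahead of the RefSeq gene start. Capitals mark matches on either strand to the ISRE letters, which are GAAA, any 2 bases and GAAA again (TTTC, any 2 bases and TTTC on the opposite strand), or to the GAS letters TTCNNNGAA. Ifit3 lies at chr19:34583531-34588731 on the plus strand, and the stretch shown is chr19:34583329-34583528. Oasl1 lies at chr5:114923240-114937915 on the plus strand, and the stretch shown is chr5:114923040-114923239. Gbp2 lies at chr3:142620602-142638008 on the plus strand, and the stretch shown is chr3:142620463-142620627, whose last 26 bases are already exon in the GENCODE annotation. Ifi47, an Irg family member, lies at chr11:49076587-49096974 on the plus strand, and the stretch shown is chr11:49076387-49076586.
Ifit3: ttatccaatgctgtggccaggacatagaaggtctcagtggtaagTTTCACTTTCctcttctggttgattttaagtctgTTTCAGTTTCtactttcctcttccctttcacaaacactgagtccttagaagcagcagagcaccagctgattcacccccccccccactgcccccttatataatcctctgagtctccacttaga
Oasl1: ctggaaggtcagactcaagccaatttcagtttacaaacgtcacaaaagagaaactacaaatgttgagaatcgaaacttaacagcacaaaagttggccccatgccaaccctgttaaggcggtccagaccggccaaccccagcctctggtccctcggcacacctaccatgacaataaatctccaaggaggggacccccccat
Gbp2: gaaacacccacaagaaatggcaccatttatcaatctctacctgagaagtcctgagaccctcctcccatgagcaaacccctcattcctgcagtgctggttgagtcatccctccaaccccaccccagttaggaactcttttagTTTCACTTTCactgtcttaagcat
Ifi47: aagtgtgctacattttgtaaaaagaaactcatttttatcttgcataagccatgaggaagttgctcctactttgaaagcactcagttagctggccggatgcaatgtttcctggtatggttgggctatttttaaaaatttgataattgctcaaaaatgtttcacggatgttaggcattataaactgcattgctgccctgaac
The Ifit3 stretch held ISRE matches 147 and 113 bases before the start (counted to the nearer end of each match), and the Gbp2 stretch held 1 at 50 bases before the RefSeq start, inside the bases that GENCODE annotates as exon. The windows of Oasl1 and Ifi47 held neither string of letters.

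Another 4 stretches were chosen after the motifs had been located, because they show how the matches are arranged. Irgm2 (chr11:58214887-58214937, plus strand), Igtp (chr11:58199496-58199546, plus strand) and Tgtp1 (chr11:48992299-48992349, minus strand) each hold a GAS match followed 2 bases later by an ISRE match, and Isg15 (chr4:156200860-156200911, minus strand) holds 3 overlapping ISRE matches.
Irgm2: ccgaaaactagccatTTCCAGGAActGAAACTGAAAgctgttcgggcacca
Igtp: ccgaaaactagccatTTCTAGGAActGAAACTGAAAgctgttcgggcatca
Tgtp1: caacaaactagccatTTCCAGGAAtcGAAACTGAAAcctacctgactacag
Isg15: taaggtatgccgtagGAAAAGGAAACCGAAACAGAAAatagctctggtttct
Irgm2, Igtp and Tgtp1 are related Irg genes on chromosome 11, so they are not independent examples. Within the 250 bases upstream of RefSeq starts, an ISRE match was found for 15 of the 27 members that matched a promoter entry, against 3.46% of all 27025 symbols with a promoter. A GAS match was found for 9 of the 27 members, against 8.13% of all symbols. The arrangement of the Irg genes, a GAS match followed after 2 bases by an ISRE match, occurred in 5 of 32851 promoters, and 3 of these belonged to Irgm2, Igtp and Tgtp1. A match is a description of the letters only.

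Lower expression of interferon response genes was the common pattern in DDK livers. Of the 35 genes listed, 34 passed the filter on low values (3 or more libraries with an FPKM of 0.5 or above), and 19 of these fell in DDK livers, 1 rose and 14 did not pass the test. FPKM is the number of fragments per kilobase of gene, scaled to the size of the library. The genes that fell were Ifit2, Ifit3, Usp18, Oas1a, Oasl1, Oasl2, Rsad2, Ifi44, Dhx58, Irf8, Gbp2, Gbp3, Gbp6, Irgm1, Irgm2, Ifi47, Tgtp1, Parp9 and Parp14, and the gene that rose was Ifi35. Called genes passed limma's test on log2(FPKM + 1) with an adjusted p under 0.05, adjusted over all 10681 genes tested.

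The background to these counts was itself shifted. Of all genes tested, 30.3% fell and 10.2% rose in DDK livers, against 55.9% of the tested members that fell. The median log2 fold change was -0.57 over the 34 members tested and -0.23 over all genes tested. Negative fold changes were measured for 31 of the 34 members. With median-ratio scaling, which brings the median of all genes to -0.01, 16 members fell (47.1% of those tested), against 16.2% of all genes, and the members' median was -0.33. Calls over all genes were 74.7% lower ones with the deposited scaling and 47.3% lower ones with median-ratio scaling. For 19 members every DDK liver lay below every vehicle liver, as was the case for 39.2% of all genes tested. For Ifi35 and Stat2 every DDK liver lay above every vehicle liver, as was the case for 14.1% of all genes. Tgtp1 passed the filter through its vehicle libraries only, and without it 18 of 33 members fell.

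**Figure D1:**
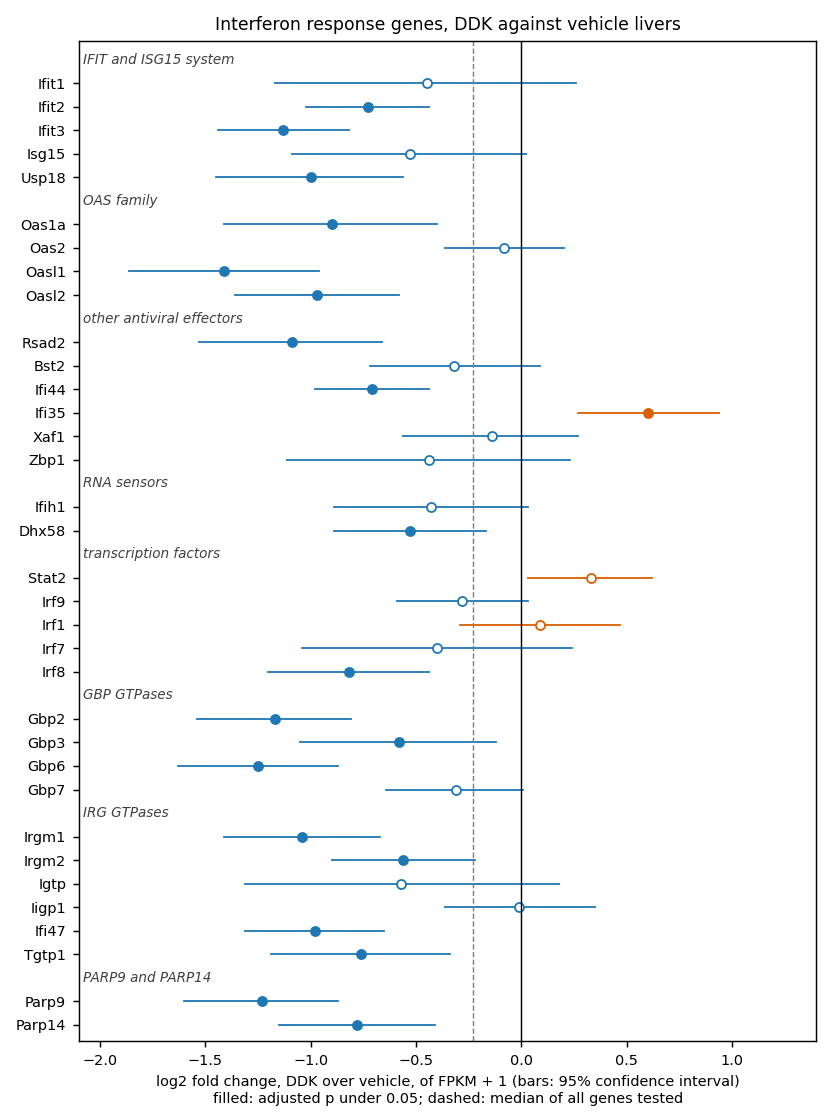
Log2 fold change of FPKM + 1, DDK over vehicle, for the 34 members tested, grouped by role, with bars for the 95% confidence interval, filled points for an adjusted p under 0.05 and a dashed line at the median of all genes (-0.23). Values run from -1.41 (Oasl1) to 0.60 (Ifi35), and most members lie left of the dashed line.

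The depth behind these values was 28756915, 26576291 and 30237490 fragments in DDK livers and 36105315, 34172473 and 33963898 fragments in vehicle livers. All 10 hepatocyte markers were expressed in every library, with summed levels of 57203 to 60635 FPKM in DDK livers and 32382 to 42883 FPKM in vehicle livers. That sum was mostly Alb and Apoa1, and 3 of the 10 markers rose and 2 fell (median log2 fold change 0.16, and -0.12 without Alb and Apoa1). The summed markers of macrophages, stellate cells and endothelial cells were lower in DDK livers, as were most of the interferon genes. The 17 macrophage and Kupffer cell markers summed to 198 to 498 FPKM in DDK livers and 662 to 1079 FPKM in vehicle livers, and 10 of the 16 that were tested fell and 1 rose (1 of the 10, Itgax, passed the filter through its vehicle libraries only). Defining Kupffer cell markers did not all move alike, since Clec4f had 43.6, 27.7 and 15.7 FPKM in DDK livers and 33.6, 29.2 and 41.3 FPKM in vehicle livers. Stellate cell and fibroblast markers summed to 61.0 to 84.7 FPKM in DDK livers and 135 to 175 FPKM in vehicle livers (6 of 9 fell). Endothelial markers summed to 55.8 to 72.7 FPKM in DDK livers and 82.7 to 121 FPKM in vehicle livers (4 of 9 fell). Beside the counts of all these lists, 30.3% of all genes tested fell and 10.2% rose. The stellate sum was mostly Dcn, and the endothelial sum mostly Clec4g, Plvap and Eng. Of the endothelial markers, Kdr, Stab2, Clec4g, Tek and Eng did not pass the test. For neutrophils, whose markers summed to 2.54 to 8.92 FPKM in DDK livers and 10.8 to 14.6 FPKM in vehicle livers, 1 of the 3 tested markers fell, a share near the 30.3% of all genes.

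For T, NK, B and plasma cells and cholangiocytes the sums of DDK and vehicle livers overlapped. T and NK cell markers summed to 7.97 to 16.5 FPKM in DDK livers and 5.12 to 13.1 FPKM in vehicle livers, and B and plasma cell markers to 2.58 to 4.99 FPKM in DDK livers and 3.80 to 4.87 FPKM in vehicle livers. Cholangiocyte markers summed to 37.1 to 63.2 FPKM in DDK livers and 47.6 to 71.2 FPKM in vehicle livers (1 of 6 fell and 1 rose). Conventional dendritic cell markers summed to 3.19 to 6.08 FPKM in DDK livers and 6.74 to 7.63 FPKM in vehicle livers with the member Irf8, and to 1.57 to 4.62 FPKM in DDK livers and 2.75 to 3.35 FPKM in vehicle livers without it, where the groups overlapped. The list for plasmacytoid dendritic cells, a main source of type I interferon, gave no common picture. Its marker Siglech had 0.0734, 0.318 and 0 FPKM (6, 24 and 0 fragments) in DDK livers and 0.0390, 0.268 and 0.238 FPKM (4, 26 and 23 fragments) in vehicle livers. Siglech was under the filter and was not tested. Another gene of that list, Ly6d, had 7.55, 8.11 and 14.0 FPKM in DDK livers and 82.4, 72.6 and 93.4 FPKM in vehicle livers and fell (log2 fold change -2.98, limma, adjusted p = 8.06e-05). The sum of the list did not overlap (216 to 275 FPKM in DDK livers, 344 to 470 FPKM in vehicle livers) and was mostly Bst2, itself a member here. Without Bst2 and Ly6d the other 5 genes summed to 0.153 to 0.514 FPKM in DDK livers and 0.254 to 0.934 FPKM in vehicle livers. In whole liver, fewer cells of a type and less RNA per cell cannot be told apart, and the part of these cell types in the results below was not tested.

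**Figure D2:**
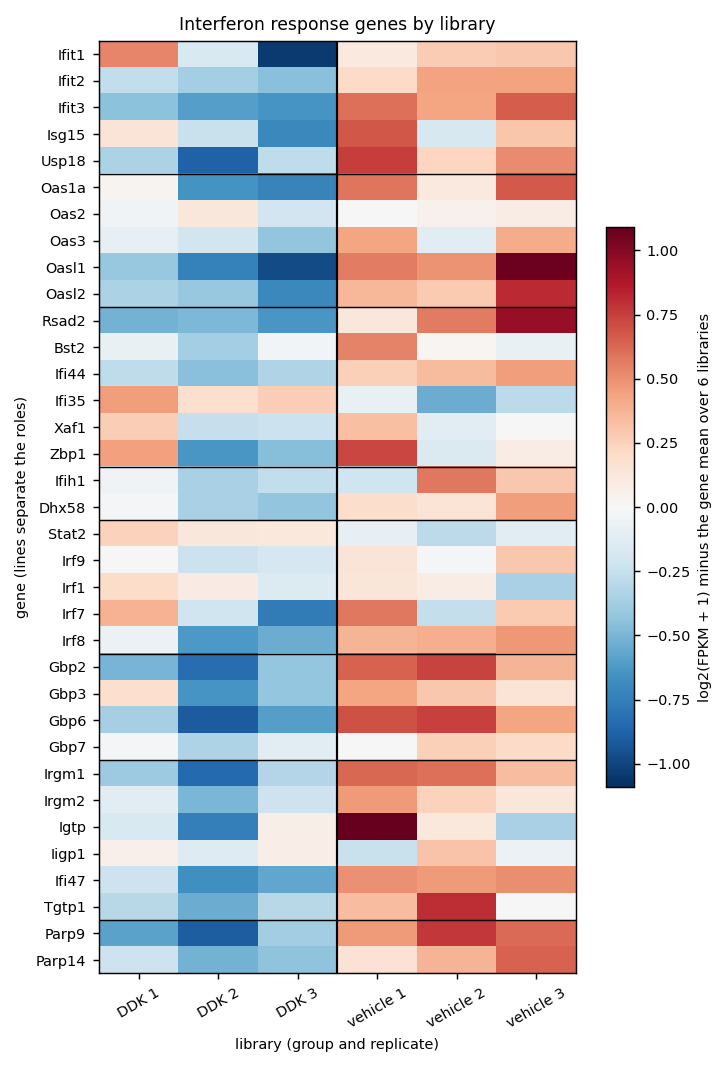
Log2(FPKM + 1) of each of the 35 listed members in each library, minus the mean of that gene over the 6 libraries, with DDK livers on the left, vehicle livers on the right and lines between the roles. Blue cells (below the gene's mean) fill most of the DDK side, with Ifi35 and Stat2 coloured the other way.

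In the group of IFIT proteins and the ISG15 system, 3 of 5 genes fell. This count and those of the next groups stand beside the 30.3% of all genes tested that fell. IFIT1 binds RNA whose cap marks it as foreign. ISG15 is a small ubiquitin-like tag that is put on proteins during the response. USP18 removes that tag and holds back signalling at the type I receptor. Ifit3 had 3.48, 3.03 and 2.91 FPKM in DDK livers and 8.28, 7.23 and 8.66 FPKM in vehicle livers. The groups were well apart and the livers of each lay close together, at 3.14 ± 0.298 FPKM with DDK and 8.06 ± 0.741 FPKM with vehicle (SD, n = 3 each). The log2 fold change of Ifit3 was -1.13 ± 0.14 (SE, limma, adjusted p = 0.000842), and its DDK mean was 39.0% of its vehicle mean.

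Ifit2 was a low gene, with 0.765, 0.647 and 0.554 FPKM in DDK livers and 1.45, 1.89 and 1.89 FPKM in vehicle livers. Every DDK liver lay below every vehicle liver, and the gene fell by 0.73 ± 0.13 on the log2 scale (SE, limma, adjusted p = 0.00325). Usp18 had 4.97, 3.12 and 5.27 FPKM in DDK livers and 11.8, 7.91 and 9.84 FPKM in vehicle livers. Its groups did not overlap either, and it fell to 45.2% of its vehicle mean in DDK livers (limma, adjusted p = 0.00487).

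Ifit1 and Isg15 did not pass the test, and their DDK livers were widely spread. Ifit1 had 5.18, 2.81 and 1.08 FPKM in DDK livers and 3.61, 4.18 and 4.24 FPKM in vehicle livers, so that DDK replicate 1 was the highest of all 6 and DDK replicate 3 the lowest. The log2 fold change of Ifit1 was -0.45 ± 0.32 (limma, adjusted p = 0.274), and without DDK replicate 1 the adjusted p was 0.0373. Isg15 had 21.7, 16.4 and 11.7 FPKM in DDK livers and 31.9, 17.3 and 24.4 FPKM in vehicle livers. These groups overlapped because DDK replicate 1 lay above vehicle replicate 2, and the log2 fold change was -0.53 ± 0.25 (limma, adjusted p = 0.108). Isg15 was called lower without vehicle replicate 2 (adjusted p = 0.041), with the replicate number as a block (0.042), after rescaling to TPM (0.0201) and with the length correction (0.0102). Ifit3 has a close copy, Ifit3b, which also fell (log2 fold change -0.72) but lost the call without DDK replicate 3 (adjusted p = 0.0521) or vehicle replicate 3 (0.0711), and how fragments are divided between them is uncertain.

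In the OAS family, 3 of the 4 genes tested fell. OAS enzymes sense double-stranded RNA and make short oligoadenylates that switch on RNase L, while mouse OASL1 lacks this activity and is known to limit translation of IRF7. Oasl1 had 2.90, 2.11 and 1.64 FPKM in DDK livers and 6.63, 6.28 and 9.83 FPKM in vehicle livers. No DDK liver reached any vehicle liver, and the log2 fold change of -1.41 ± 0.20 (SE, limma, adjusted p = 0.00145) was the lowest among the members tested. The DDK mean of Oasl1 was 29.2% of its vehicle mean. Its neighbour Oasl2, which in mice keeps the synthetase activity, had 1.18, 1.09 and 0.710 FPKM in DDK livers and 2.56, 2.38 and 3.87 FPKM in vehicle livers. The log2 fold change of Oasl2 was -0.97 ± 0.17 (limma, adjusted p = 0.00332), again without overlap.

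Oas1a, one of several Oas1 copies, had 2.18, 0.986 and 0.883 FPKM in DDK livers and 3.68, 2.36 and 3.95 FPKM in vehicle livers. DDK replicate 1 was the only DDK liver near the vehicle range, and the log2 fold change was -0.90 ± 0.23 (limma, adjusted p = 0.0124). This call was lost without DDK replicate 2 (adjusted p = 0.0568) or vehicle replicate 3 (adjusted p = 0.0533). The near-identical Oas1g also fell, with a log2 fold change of -0.65, a call lost without DDK replicate 2 (0.0799) or 3 (0.0624) or vehicle replicate 3 (0.0803), and the split of fragments between the copies is uncertain. Oas2 had 0.606, 0.803 and 0.430 FPKM in DDK livers and 0.645, 0.711 and 0.744 FPKM in vehicle livers. Its groups overlapped and its log2 fold change of -0.08 ± 0.12 (95% confidence interval -0.36 to 0.20) changed sign with median-ratio scaling. Oas3 was under the filter and was not tested, with 0.318, 0.222 and 0.0404 FPKM (45, 29 and 6 fragments) in DDK livers and 0.884, 0.298 and 0.856 FPKM (157, 50 and 143 fragments) in vehicle livers. Vehicle replicate 2 was low as well, within the DDK range of Oas3.

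Among the other antiviral effectors, Rsad2 and Ifi44 fell, Ifi35 rose, and Bst2, Xaf1 and Zbp1 did not pass the test. Rsad2 encodes viperin, which makes a nucleotide that ends viral RNA chains. Rsad2 had 0.689, 0.716 and 0.559 FPKM in DDK livers and 1.63, 2.57 and 3.65 FPKM in vehicle livers. The DDK livers were close to each other and all below the spread vehicle livers, with a DDK mean of 25.0% of the vehicle mean and a log2 fold change of -1.09 ± 0.19 (limma, adjusted p = 0.00319). Ifi44 had 0.511, 0.329 and 0.451 FPKM in DDK livers and 1.18, 1.32 and 1.51 FPKM in vehicle livers. Its groups were apart, and the log2 fold change was -0.71 ± 0.12 (limma, adjusted p = 0.00283).

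Ifi35 went the other way. It encodes a leucine zipper protein that pairs with NMI, and it had 42.6, 34.9 and 37.3 FPKM in DDK livers and 29.0, 20.8 and 25.0 FPKM in vehicle livers. Every DDK liver was above every vehicle liver, at a log2 fold change of 0.60 ± 0.15 (SE, limma, adjusted p = 0.012). The call was lost without DDK replicate 1 (adjusted p = 0.0551) and after rescaling to TPM (adjusted p = 0.0515). Bst2, also called tetherin because it holds budding virus at the cell surface, was the most abundant member. It had 253, 207 and 261 FPKM in DDK livers and 388, 271 and 253 FPKM in vehicle livers, with overlap between the groups and a log2 fold change of -0.32 ± 0.18 (limma, adjusted p = 0.179). Zbp1, a sensor of Z-form nucleic acid, had 6.08, 2.35 and 2.77 FPKM in DDK livers and 7.64, 3.68 and 4.52 FPKM in vehicle livers (log2 fold change -0.44 ± 0.30). Xaf1, a partner of the apoptosis inhibitor XIAP, had 3.50, 2.13 and 2.18 FPKM in DDK livers and 3.70, 2.45 and 2.74 FPKM in vehicle livers (log2 fold change -0.14 ± 0.19). In both genes replicate 1 was the highest liver of its group, and the groups overlapped.

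The RNA sensors were measured at similar levels per length. Dhx58 encodes LGP2, a helicase that tunes the sensors RIG-I and MDA5, and it had 5.54, 4.17 and 3.91 FPKM in DDK livers and 6.55, 6.33 and 8.06 FPKM in vehicle livers. The groups did not overlap and Dhx58 fell (log2 fold change -0.53 ± 0.16, limma, adjusted p = 0.0267). It lost the call without DDK replicate 2 (adjusted p = 0.1), DDK replicate 3 (0.0815) or vehicle replicate 3 (0.104), and with median-ratio scaling (0.164). Ifih1, which encodes MDA5, had 3.96, 2.99 and 3.23 FPKM in DDK livers and 3.36, 6.58 and 5.23 FPKM in vehicle livers. Vehicle replicate 1 lay inside the DDK range, and the log2 fold change was -0.43 ± 0.21 (limma, adjusted p = 0.115). Without vehicle replicate 1 the adjusted p of Ifih1 was 0.00931.

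Among the 5 transcription factors, Irf8 alone fell. IRF8 directs the development of macrophages and dendritic cells and is induced by interferon gamma. It had 2.63, 1.46 and 1.62 FPKM in DDK livers and 3.91, 3.99 and 4.28 FPKM in vehicle livers. The groups were apart, with a log2 fold change of -0.82 ± 0.17 (SE, limma, adjusted p = 0.00573). Irf8 is also a marker of conventional dendritic cells, and the other tested markers of that list, Clec9a (0.07) and Batf3 (-0.05), did not pass the test. The macrophage marker sum was lower in all 3 DDK livers, and its part in the level of Irf8 was not tested.

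Stat2 and Irf9, which encode partners in the complex that binds ISRE, did not pass the test. Stat2 had 10.3, 9.33 and 9.24 FPKM in DDK livers and 7.91, 6.76 and 7.76 FPKM in vehicle livers. Every DDK liver was above every vehicle liver, at a log2 fold change of 0.33 ± 0.13 (limma, adjusted p = 0.0701), and with median-ratio scaling Stat2 was called higher (adjusted p = 0.00983). Without vehicle replicate 1 the adjusted p of Stat2 was 0.0363. Irf9 had 12.0, 10.0 and 10.4 FPKM in DDK livers and 13.3, 11.8 and 14.9 FPKM in vehicle livers, with a log2 fold change of -0.28 ± 0.14 (limma, adjusted p = 0.133). Its groups overlapped at DDK replicate 1 and vehicle replicate 2.

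Irf7, the factor that drives most interferon alpha genes, was widely spread in both groups. It had 43.8, 28.5 and 19.3 FPKM in DDK livers and 50.3, 27.7 and 40.8 FPKM in vehicle livers, with a log2 fold change of -0.40 ± 0.29 (limma, adjusted p = 0.279). Irf1, an early target of interferon gamma, had 10.6, 9.78 and 8.10 FPKM in DDK livers and 10.1, 9.70 and 6.90 FPKM in vehicle livers. The groups of Irf1 overlapped almost fully, and the 95% confidence interval of its log2 fold change ran from -0.29 to 0.47.

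In the GBP family, large GTPases that coat vacuoles and bacteria inside cells, 3 of 4 genes fell. Gbp2 had 1.18, 0.751 and 1.32 FPKM in DDK livers and 3.86, 4.18 and 3.02 FPKM in vehicle livers. Every DDK liver was below every vehicle liver, and the log2 fold change was -1.17 ± 0.16 (SE, limma, adjusted p = 0.00132). Gbp6 had 1.08, 0.421 and 0.761 FPKM in DDK livers and 3.31, 3.48 and 2.60 FPKM in vehicle livers. Its DDK mean was 24.1% of its vehicle mean, the lowest share among the tested members, and its log2 fold change was -1.25 ± 0.17 (limma, adjusted p = 0.00126). Gbp6 shares 1726 exon bases with another annotated gene model, Gm43302, and is similar to Gbp10, so its share of fragments is uncertain.

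The other members of the GBP family were less clear. Gbp3 had 3.08, 1.30 and 1.68 FPKM in DDK livers and 3.85, 3.41 and 2.98 FPKM in vehicle livers. DDK replicate 1 lay within the vehicle range, and the log2 fold change of -0.58 ± 0.21 passed narrowly (limma, adjusted p = 0.0481). That call was lost with median-ratio scaling (adjusted p = 0.19) and when any of 5 single livers was left out (adjusted p from 0.0791 to 0.188). Gbp7 had 1.70, 1.16 and 1.52 FPKM in DDK livers and 1.73, 2.27 and 2.16 FPKM in vehicle livers. The groups of Gbp7 did not overlap, although DDK replicate 1 and vehicle replicate 1 nearly met, and the log2 fold change was -0.31 ± 0.15 (limma, adjusted p = 0.107). Gbp7 was called lower without vehicle replicate 1 (adjusted p = 0.043), with library weights (0.036) and after rescaling to TPM (0.039).

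In the IRG family, the immunity-related GTPases that act on vacuoles holding parasites, 4 of 6 genes fell. Irgm1, Irgm2 and Igtp are the regulatory members, and Iigp1, Ifi47 and Tgtp1 belong to the effector class. Irgm1 had 12.4, 8.79 and 13.1 FPKM in DDK livers and 26.1, 25.7 and 21.3 FPKM in vehicle livers. Every DDK liver was below every vehicle liver, and the log2 fold change was -1.04 ± 0.17 (SE, limma, adjusted p = 0.00208). Irgm2 had 13.3, 9.93 and 12.2 FPKM in DDK livers and 20.3, 17.4 and 15.8 FPKM in vehicle livers. Its groups were apart too, at a log2 fold change of -0.56 ± 0.15 (limma, adjusted p = 0.0172), but the call was lost with median-ratio scaling (adjusted p = 0.209) and without DDK replicate 2 (adjusted p = 0.0809). Igtp, whose annotated exons share 162 bases with those of Irgm2, had 15.8, 10.3 and 18.7 FPKM in DDK livers and 39.2, 19.4 and 13.8 FPKM in vehicle livers. The vehicle livers were spread over the whole range, and the log2 fold change of -0.57 ± 0.33 did not pass (limma, adjusted p = 0.191).

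Among the effector class, Ifi47 had 7.84, 5.53 and 5.98 FPKM in DDK livers and 13.6, 13.3 and 13.7 FPKM in vehicle livers. The vehicle livers were almost equal and all above the DDK livers, with a log2 fold change of -0.98 ± 0.15 (limma, adjusted p = 0.00177). Tgtp1 had 0.458, 0.241 and 0.459 FPKM in DDK livers and 1.27, 2.14 and 0.807 FPKM in vehicle livers. It fell (log2 fold change -0.76 ± 0.19, limma, adjusted p = 0.0122), and lost the call without DDK replicate 2 (adjusted p = 0.0555). Because Tgtp1 passed the filter through its vehicle libraries only, the count for the family without it was 3 of 5. With Tgtp1 the count was 2 of 6 when DDK replicate 2 was left out, where 16.5% of all genes tested fell. The near copy of Tgtp1, Tgtp2, passed the filter in the same way and fell at -0.45. That call was lost with median-ratio scaling (adjusted p = 0.0982) and without DDK replicate 1 (0.0913) or 2 (0.118). The division of fragments between the copies is uncertain.

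Iigp1 did not pass the test and had close means in both groups. It was the most abundant of the GTPases, with 85.8, 75.0 and 87.2 FPKM in DDK livers and 69.9, 103 and 79.0 FPKM in vehicle livers. The DDK livers lay within the vehicle range, at 82.7 ± 6.64 FPKM against 84.0 ± 17.1 FPKM (SD, n = 3 each). The log2 fold change of Iigp1 was -0.01 ± 0.16 with a 95% confidence interval from -0.36 to 0.35, and the lower bound lay above the fold changes measured for Irgm1 and Gbp2. With median-ratio scaling the fold change of Iigp1 was 0.29 and did not pass the test either.

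**Figure D3:**
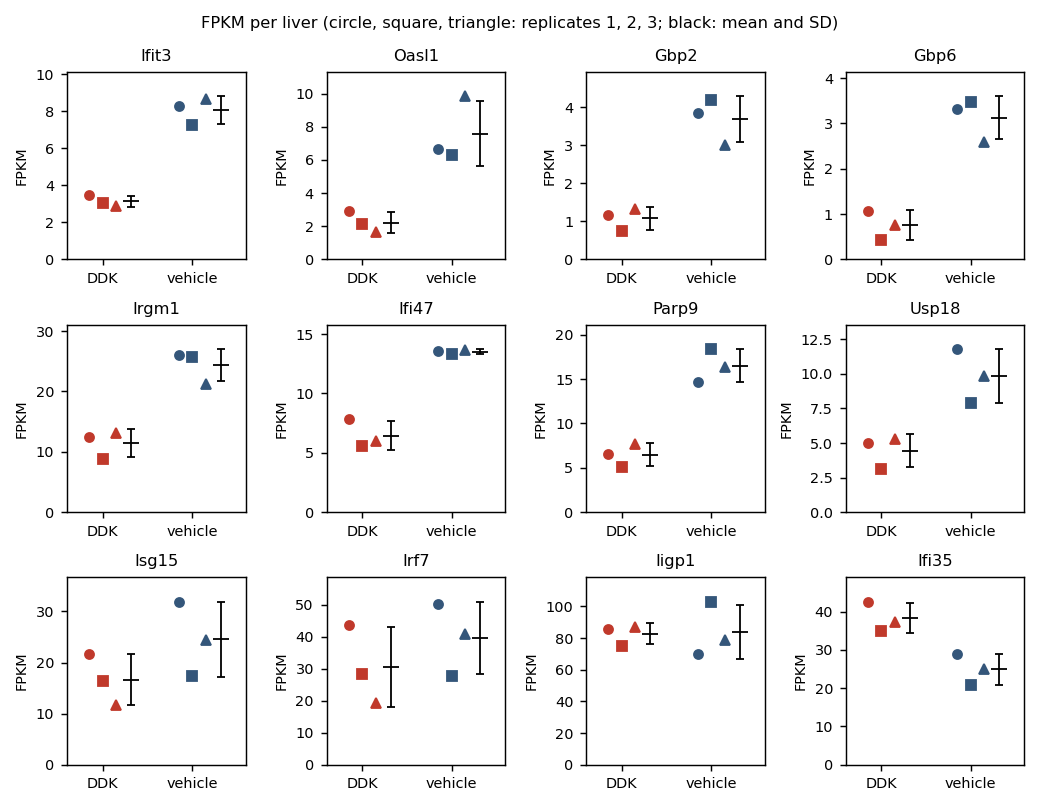
FPKM of 12 members in each liver on linear axes from 0, with DDK in red on the left, vehicle in blue on the right, the replicate number given by the symbol, and the mean and SD of 3 livers in black. Ifit3, Oasl1, Gbp2, Gbp6, Irgm1, Ifi47, Parp9 and Usp18 are lower in every DDK liver, Ifi35 is higher in every DDK liver, and the groups of Isg15, Irf7 and Iigp1 overlap.

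Both ADP-ribosyltransferase genes of the set fell. PARP9 works with the ubiquitin ligase DTX3L, and PARP14 modifies proteins with ADP-ribose in interferon-treated cells. Parp9 had 6.60, 5.11 and 7.72 FPKM in DDK livers and 14.7, 18.4 and 16.4 FPKM in vehicle livers. The groups were far apart, at a log2 fold change of -1.23 ± 0.16 (SE, limma, adjusted p = 0.00109). Parp9 and Dtx3l share 458 exon bases on opposite strands and the library kit does not mark strand, so reads of the shared stretch cannot be told apart. Parp14 had 2.18, 1.61 and 1.75 FPKM in DDK livers and 3.16, 3.80 and 4.81 FPKM in vehicle livers. Its groups did not overlap, and the log2 fold change was -0.78 ± 0.16 (limma, adjusted p = 0.00609).

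Type I-leaning genes and gamma-leaning GTPases were both lower in DDK livers. Of the 9 type I-leaning genes (Ifit1, Ifit2, Ifit3, Isg15, Oas1a, Oas2, Oas3, Oasl1 and Oasl2) 8 were tested, 5 fell, and their median log2 fold change was -0.82. Of the 7 gamma-leaning GTPases (Gbp2, Gbp3, Gbp6, Gbp7, Irgm1, Irgm2 and Iigp1) 5 fell, and their median was -0.58. Each class held genes with large falls (Oasl1 and Ifit3, Gbp6 and Gbp2) beside a gene near no difference (Oas2, Iigp1). Both medians were below the -0.23 of all genes tested. With Igtp, Ifi47 and Tgtp1 added, 7 of 10 gamma-leaning genes fell (6 of 9 without Tgtp1) with a median of -0.67, and without Oasl1 and Oasl2 the median of the 6 type I-leaning genes tested was -0.63. The difference between the classes was not tested. With median-ratio scaling, 5 type I-leaning genes and 3 gamma-leaning GTPases were called lower, with medians of -0.64 and -0.38. Without DDK replicate 2 the gamma-leaning count was 3 of 7, and 4 of 10 in the wider class. The type I-leaning count was 4 of 8 without DDK replicate 2, and also 4 of 8 without vehicle replicate 3. Of all genes tested, 16.5% fell in each of these settings.

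The livers within the DDK group were ordered differently by the 2 classes. Type I-leaning genes averaged 1.77, 1.51 and 1.22 on the log2(FPKM + 1) scale in DDK replicates 1 to 3, and 2.26, 2.07 and 2.40 in vehicle replicates 1 to 3. DDK replicate 3 was the lowest DDK liver for 9 of these 9 genes, and DDK replicate 1 was the highest for 8. The gamma-leaning GTPases averaged 2.81, 2.37 and 2.68 in DDK replicates 1 to 3 and 3.35, 3.43 and 3.20 in vehicle replicates 1 to 3. For them DDK replicate 2 was the lowest DDK liver for 7 of 7 genes. The macrophage and Kupffer cell markers had the order of the type I-leaning genes within the DDK group, with DDK replicate 3 lowest for 16 of 17 markers and DDK replicate 1 highest for 14. Within the vehicle group replicate 3 was the highest liver for 7 of the 9 type I-leaning genes and for 16 of the 17 macrophage markers, and the lowest liver for 5 of the 7 gamma-leaning GTPases. These orders rest on 3 livers in each group, genes of 1 liver share its library, and the part of the macrophage markers was not tested.

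**Figure D4:**
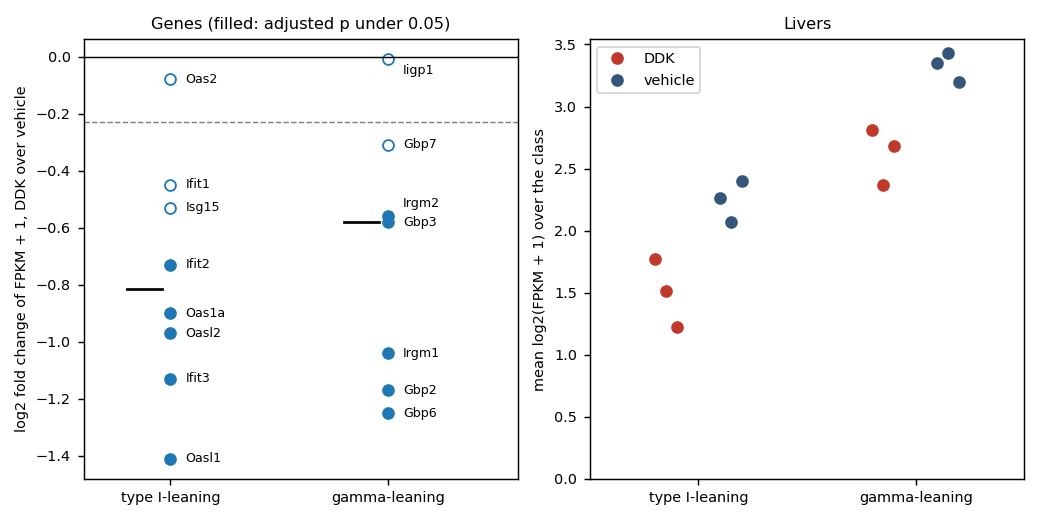
Left, log2 fold change of FPKM + 1, DDK over vehicle, of each type I-leaning and gamma-leaning gene tested (filled for an adjusted p under 0.05), with short black lines at the class medians (-0.82 and -0.58) and a dashed line at the median of all genes (-0.23). Right, the mean of log2(FPKM + 1) over each class in each liver, replicates 1 to 3 from left to right, where all 3 DDK livers lie below all 3 vehicle livers in both classes.

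Members with and without the promoter letters had similar counts of calls. Of the 14 tested members with an ISRE match, 8 fell with a median log2 fold change of -0.57, and of the 12 tested members whose promoter held none, 6 fell and 1 rose, with a median of -0.57. Of the 9 members with a GAS match, 5 fell with a median of -0.57, and of the 17 without, 9 fell and 1 rose, with a median of -0.58. Irgm2, Igtp and Tgtp1, which share the arrangement shown above, had fold changes of -0.56, -0.57 and -0.76. The Isg15 promoter with its 3 overlapping ISRE matches belonged to a gene that did not pass the test, and the windows of Oasl1 and Ifi47 without a match belonged to genes that fell. These are counts with no test of a difference.

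Interferons themselves were near the limit of detection in whole liver. Of 21 ligand genes, 19 were listed at 0 in all 6 livers, Ifnb1 among them, and none was tested. Ifng had 5, 0 and 4 fragments in DDK livers and 4, 2 and 0 fragments in vehicle livers, and Ifnk had 1, 1 and 6 fragments in DDK livers and 0, 0 and 0 in vehicle livers. At this depth 3 fragments of a gene of 2000 bp correspond to 0.0496 to 0.0564 FPKM in DDK livers and 0.0415 to 0.0442 FPKM in vehicle livers, which covers counting error only, so a difference in ligand RNA was not detectable.

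Of the receptor genes, both chains for interferon gamma fell and both chains for type I interferon did not pass the test. Ifngr2 had 5.40, 5.77 and 8.64 FPKM in DDK livers and 14.6, 16.4 and 18.7 FPKM in vehicle livers. The groups were apart, with a log2 fold change of -1.23 ± 0.18 (SE, limma, adjusted p = 0.00154). Ifngr1 had 7.46, 5.34 and 5.61 FPKM in DDK livers and 10.0, 8.49 and 11.6 FPKM in vehicle livers, and fell less (log2 fold change -0.63 ± 0.17, limma, adjusted p = 0.0152). The call of Ifngr1 was lost with median-ratio scaling (adjusted p = 0.0945), without DDK replicate 2 (0.0699) and without vehicle replicate 3 (0.0664). Il10rb, a chain shared by the receptors for interferon lambda and interleukin-10, fell at -0.71 ± 0.15 (limma, adjusted p = 0.00638). Ifnar2 had 18.1, 17.3 and 17.6 FPKM in DDK livers and 15.8, 12.6 and 13.6 FPKM in vehicle livers, with every DDK liver above every vehicle liver (log2 fold change 0.32 ± 0.13, limma, adjusted p = 0.0716). Ifnar1 had a log2 fold change of 0.06, with a 95% confidence interval from -0.29 to 0.41.

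Signalling genes went both ways. Of the 6 genes described, Jak1 and Irf2 fell (33.3%, near the 30.3% of all genes tested) and Irf3 rose. Without vehicle replicate 1 the count that fell was 4, and 39.6% of all genes tested fell. Jak1, the kinase of both receptors, fell at -0.68 ± 0.16 (limma, adjusted p = 0.0095). Irf2, a repressor of IRF1 targets, fell at -0.47 ± 0.16 (limma, adjusted p = 0.044), a call lost with median-ratio scaling (0.19) and without any of 5 single livers (adjusted p from 0.0937 to 0.151). Irf3, which turns on interferon beta after sensing of nucleic acid, had 60.9, 52.9 and 54.2 FPKM in DDK livers and 39.4, 31.0 and 32.5 FPKM in vehicle livers. It rose at 0.70 ± 0.13 (limma, adjusted p = 0.00429), with every DDK liver above every vehicle liver.

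Of 9 tested genes for sensing nucleic acids, 4 fell (44.4%, against 30.3% of all genes tested). Mavs, the mitochondrial adaptor of RIG-I and MDA5, had 8.39, 8.66 and 10.5 FPKM in DDK livers and 20.6, 22.9 and 27.5 FPKM in vehicle livers. The groups were far apart, at a log2 fold change of -1.27 ± 0.15 (limma, adjusted p = 0.000703). Ddx58, which encodes RIG-I, fell at -0.66 ± 0.17 (limma, adjusted p = 0.0122), and the kinase gene Tbk1 at -0.56 ± 0.17 (adjusted p = 0.0255). Tlr7, an endosomal RNA sensor of immune cells, fell at -0.51 ± 0.12 (adjusted p = 0.00905), but it passed the filter through its vehicle libraries only, and without it 3 of 8 genes fell. The count of 4 of 9 was 2 of 8 without vehicle replicate 2 and 1 of 8 without vehicle replicate 3. These shares of 25.0% and 12.5% stood beside 19.8% and 16.5% of all genes tested. With median-ratio scaling Tbk1 lost its call (adjusted p = 0.121). Without vehicle replicate 3 both Tbk1 (0.0982) and Ddx58 (0.0525) lost theirs, as did Ddx58 without DDK replicate 1 (0.0501) and Tbk1 without DDK replicate 2 (0.112) or vehicle replicate 2 (0.0768). Of 11 genes that hold the response back, Ptpn11, Samhd1 and Adar fell and Rnaseh2c rose. The share that fell was 27.3%, near the 30.3% of all genes tested, and the median log2 fold change of the 11 was 0.12. Ptpn11, a phosphatase gene, fell at -0.89 ± 0.18 (limma, adjusted p = 0.00551), and Samhd1, a nucleotide hydrolase gene, at -0.76 ± 0.17 (adjusted p = 0.0074). The calls of Adar (-0.45, adjusted p = 0.0472) and Rnaseh2c (0.64, adjusted p = 0.0451) lay close to the threshold, and each was lost without any of 5 single livers. Without vehicle replicate 1 the count of this group that rose was 4 of 11, where 1351 of all 10423 genes tested rose. The feedback inhibitors Socs1 and Socs3 had log2 fold changes of 0.07 and 0.55 and did not pass the test.

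**Figure D5:**
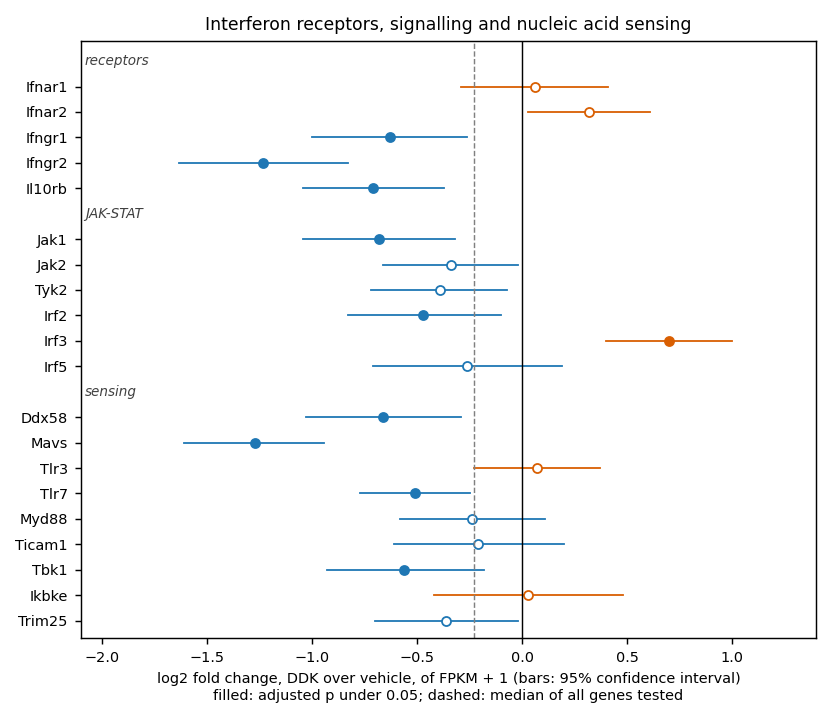
Log2 fold change of FPKM + 1, DDK over vehicle, of the receptor, signalling and sensing genes tested, with bars for the 95% confidence interval, filled points for an adjusted p under 0.05 and a dashed line at the median of all genes (-0.23). Mavs lies at -1.27 and Ifngr2 at -1.23, and Irf3 lies at 0.70.

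Wider lists of targets were measured beside the members. Of 36 tested genes among 41 other type I targets, 21 fell and 1 rose, with a median log2 fold change of -0.56. Of 24 tested genes among 32 other gamma targets, 6 fell and 3 rose, with a median of -0.23, the same as that of all genes tested. The shares that fell were 58.3% of the type I list and 25.0% of the gamma list, against 30.3% of all genes tested. Among the genes counted as lower, Slfn8 of the type I list and Tgtp2 of the gamma list passed the filter through their vehicle libraries only. With median-ratio scaling 14 genes of the type I list fell and 2 rose (median -0.40), and 3 genes of the gamma list fell and 5 rose (median -0.01), beside 1727 lower and 1924 higher calls over all genes. Without 1 liver the 21 was as low as 12 of 34 genes (without vehicle replicate 3, 35.3% beside 16.5% of all genes tested). It was 13 of 35 without DDK replicate 2 (37.1% beside 16.5%) and 14 of 36 without DDK replicate 3 (38.9% beside 26.3%). The 6 of the gamma list was 3 of 24 without DDK replicate 2 (12.5%, beside the same 16.5% of all genes). The 3 of the gamma list that rose became 5 of 24 without DDK replicate 3, where 9.30% of all genes tested rose. They became 5 of 23 without vehicle replicate 1, where 1351 of all 10423 genes tested rose. The type I list was led by Lgals3bp, which encodes a secreted glycoprotein and had 17.0, 15.8 and 19.9 FPKM in DDK livers and 47.7, 48.8 and 59.7 FPKM in vehicle livers. It fell by 1.51 ± 0.14 on the log2 scale (limma, adjusted p = 0.000325) with the groups far apart. Tor3a (-1.20), Ly6e (-1.43), which encodes a surface protein that restricts coronaviruses, Cmpk2 (-1.18), the neighbour of Rsad2, and Epsti1 (-1.11) also fell, with adjusted p-values from limma between 0.000698 and 0.00145. Apol9b was the gene of that list that rose (0.69, adjusted p = 0.045), and it lost the call without DDK replicate 1 (0.154) or 2 (0.124) or vehicle replicate 2 (0.145) or 3 (0.115).

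The gamma list held genes that moved in opposite directions. Gbp10, a further GTPase, had 1.41, 0.917 and 0.637 FPKM in DDK livers and 4.36, 5.06 and 3.76 FPKM in vehicle livers, without overlap (log2 fold change -1.45 ± 0.17, limma, adjusted p = 0.000749). Cxcl10, a chemokine that draws T cells, fell at -1.30 ± 0.24 (limma, adjusted p = 0.00375). Cd74, the chaperone of MHC class II carried by antigen-presenting cells, fell at -1.28 ± 0.30 (limma, adjusted p = 0.00979). It had 130, 79.4 and 49.0 FPKM in DDK livers and 251, 165 and 177 FPKM in vehicle livers. Its order within the DDK group was that of most macrophage markers. Within the vehicle group it was highest in replicate 1, whereas 16 of the 17 macrophage markers were highest in replicate 3. The part of macrophages in its level was not tested. Psme2 and Psme1, the subunits of the proteasome activator PA28, rose. Psme2 had 143, 136 and 113 FPKM in DDK livers and 87.9, 63.3 and 63.3 FPKM in vehicle livers, at a log2 fold change of 0.87 ± 0.16 (limma, adjusted p = 0.00375). Psme1 had 195, 185 and 190 FPKM in DDK livers and 148, 107 and 112 FPKM in vehicle livers, at 0.65 ± 0.15 (limma, adjusted p = 0.00818). In both genes every DDK liver lay above every vehicle liver.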

How the data were processed

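Liver RNA of 6 mice was measured by RNA-seq, with 3 livers per group assigned from the treatment label. Per the labels' protocols, frozen liver was extracted with the RNeasy Plus kit, and libraries were made from 1.3 µg of RNA with the NEBNext Ultra kit, which does not mark strand. Values are the FPKM that the authors deposited, on build GRCm38 (mm10) per the submitters' processing notes. The aligner, the counter, the annotation and the treatment of fragments matching several genes are not given in the sources used here.

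Tests covered the 10681 genes with 3 or more libraries at an FPKM of 0.5 or above and were run on log2(FPKM + 1) by limma (version 3.58.1, R version 4.3.3), using its variance trend, with p-values adjusted by Benjamini-Hochberg over these genes. The threshold was an adjusted p under 0.05. The pseudocount of 1 makes fold changes of low genes smaller than they are. Fold changes are DDK over vehicle, with standard errors (SE) from limma.

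Depth was recovered from the FPKM values. For 16572 of the 16573 genes above 0, values were whole fragments within 0.0001 of a fragment, and the other 5600 symbols were listed at 0. Run on these fragments, voom called 3209 genes lower and 1030 higher. Livers of a group were further apart than counting error, at a chi-square of 21.0 to 137 per gene.

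Members, classes, pathway lists and marker lists were chosen with earlier results of these data known. All members are named, and other genes of a list when called, at most 5 per list by smallest p. Apol9b, Slfn8, the close copies Ifit3b, Oas1g and Tgtp2, the ligands, the uncalled genes Ifnar1, Ifnar2, Socs1 and Socs3 and single cell type markers were named after their values were seen. Gene positions are from GENCODE M21 on GRCm38, promoters from RefSeq on GRCm38.p6. Mx1, Mb21d1 and Tmem173 were not analysed here. One gene of the signalling list is not reported here. Alternatives were other pseudocounts, filters and scalings, library weights, a replicate block, voom, a gene-length correction and leaving out each liver. Figures were drawn with matplotlib 3.10.9 in Python 3.11.15.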

Additional observations from a re-analysis of the deposited data

How the results depend on the processing

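Of the 20 called members, 14 kept their call under every alternative, and none of the 20 changed direction. The count of members that fell was 14 to 24 over all alternatives and 14 to 20 when 1 liver was left out. The count that rose was 2 with median-ratio scaling, quantile normalization, library weights or the length correction, 0 after rescaling to TPM, and 0 to 2 when 1 liver was left out (0 without DDK replicate 1, 2 without vehicle replicate 1). Calls over all genes moved with scaling and with single livers: 1727 lower and 1924 higher with median-ratio scaling, 1743 and 1886 with quantile normalization, 1844 and 1723 with the length correction, 4929 and 631 after rescaling to TPM, 4697 and 1571 with library weights, against 3234 and 1093 as deposited. With no filter 16573 genes were tested and 2500 fell and 864 rose, and leaving out 1 liver gave 1711 to 4127 lower and 599 to 1351 higher calls. The cause was not tested.

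The median of the gamma-leaning GTPases was -0.81 with a pseudocount of 0.1, -0.38 with median-ratio scaling, -0.32 with quantile normalization, -0.86 after rescaling to TPM, -0.83 with voom, -0.31 with the length correction and -0.82 to -0.45 when 1 liver was left out. That of the type I-leaning genes was -1.30 with a pseudocount of 0.1, -0.56 with quantile normalization, -1.16 after rescaling to TPM, -1.37 with voom and -0.94 to -0.72 when 1 liver was left out. By construction, voom and the lower pseudocount shrink the fold changes of low genes less than the pseudocount of 1 does.

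Fold changes that changed sign belonged to 5 members that were not called. Iigp1 was 0.29 with median-ratio scaling, 0.00 with quantile normalization, 0.29 with the length correction and -0.13 to 0.15 when 1 liver was left out (0.06 without DDK replicate 2, 0.15 without vehicle replicate 2). Oas2 was 0.04, 0.10 and 0.22 under the first 3 of these settings and -0.17 to 0.00 when 1 liver was left out (0.00 without DDK replicate 3). Xaf1 was 0.07, 0.15 and 0.13 under those 3 settings and 0.01 with library weights. Irf1 was -0.12 after rescaling to TPM and -0.06 to 0.19 when 1 liver was left out (-0.06 without vehicle replicate 3), and Gbp7 was 0.00 with the length correction.

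With the replicate number as a block, 20 members fell and 1 rose. Fold changes cannot move under the block in this balanced design, so the class medians stay -0.82 and -0.58. Deviations from the group means correlated at 0.141, -0.146 and 0.056 between livers sharing a number 1, 2 and 3. With 3 livers per group these values cannot decide whether the numbers pair the livers. Not every liver correlated best with its own number. Low levels limit Oas3, which was not tested, and the ligands.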
